A study of Mus musculus with 42 samples.

Results

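The genes described here are 9 members of the Nodal pathway, chosen by name: the ligands Nodal and Gdf3, the co-receptors Tdgf1 (Cripto) and Cfc1 (Cryptic), the receptor Acvr2b, the nuclear partner Foxh1, the secreted antagonists Lefty1 and Lefty2, and the intracellular inhibitor Smad7. They were 9 of the 20972 mouse genes that the arrays measured through a RefSeq accession. The members have 12 probes, 3 for Tdgf1, 2 for Gdf3 and 1 for each of the others, and the probe with the highest mean over all 42 arrays stands for its gene. Each of the 12 probes was well above background on all 42 arrays.

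The study followed mouse embryonic stem cells (mESCs) as they were converted in a monolayer to anterior definitive endoderm (ADE). RNA was measured on 42 Agilent 1-colour arrays, 3 for each of 14 groups, and every group came from 1 dual reporter line, in which GFP reports the homeobox gene Gsc and RedStar reports the homeobox gene Hhex. The untreated series held undifferentiated ESCs, unsorted cells of d2, cells sorted on GFP as G- and G+ at d3 and d4 and as G-, Glow and Ghigh at d5, and cells of d6 sorted on both reporters as G+H- and G+H+. The EPZ6438 series held d6 cultures, whose labels name no sort, of 3 regimens. Control cells had DMSO before and during differentiation. ADE_EPZ cells had DMSO before and 2.5 µM of the EZH2 inhibitor EPZ6438 during differentiation, and ES_EPZ cells had 2.5 µM EPZ6438 before and DMSO during it. EZH2 is the methyltransferase of Polycomb repressive complex 2. Since Gsc and Hhex chose the sorted cells, their own levels between the sorted groups are no finding.

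Nodal is a secreted ligand of the TGF-beta family that binds type I and type II activin receptors together with an EGF-CFC co-receptor, Cripto or Cryptic. The receptors phosphorylate Smad2 and Smad3, which enter the nucleus and act with partners such as Foxh1, and Nodal and the Lefty genes are themselves among the targets. Lefty proteins block the ligand and its co-receptor, so that the pathway carries its own feedback, and graded Nodal activity is known to pattern mesoderm and endoderm in the primitive streak.

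All values are log2 intensity after background correction and quantile normalisation by the authors, and a difference of 1 is a doubling of intensity. They compare a gene between groups, not a gene with another gene. A gene was called where the limma adjusted p did not exceed 0.01 and the log2 difference reached 1.5 in either direction, with p values adjusted over all 55681 probes of a comparison. Shares of all genes called are at these limits. Counts of members with an unadjusted p under 0.05 are at a looser limit. No share of all genes was computed for that limit, so the 2 are not to be compared. The error of a group is the SD of its 3 arrays and that of a difference its standard error (SE). An exact permutation test of 3 arrays against 3 cannot give a p under 0.1, so the p values given are those of limma. The study describes its replicates as independent experiments, while the labels do not say which steps were repeated, and the p values measure the spread between these samples. RNA from a population cannot tell fewer expressing cells from less RNA per cell.

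The labelled populations carried their markers. Between ESCs and d6 G+H+ cells, 7 of 7 markers of pluripotent cells fell and 6 of 6 of definitive endoderm rose. Hhex, whose reporter chose the G+H+ cells, is among the 6. Among primitive streak markers other than Gsc, Mixl1, Eomes and Mesp1 were called higher in d3 G+ than in d3 G- cells and T and Fgf8 were not. Of 6 visceral endoderm markers, 5 were well above background on all d6 G+H+ arrays and 1, Afp, on none, and 2 of 6, Ttr and Dab2, were called higher there than in ESCs. In the untreated series, replicates 1 and 2 filled 3 slides of 1 scan batch and replicate 3 filled 2 slides of another. The EPZ6438 series filled 3 slides, each with 1 array of every regimen. It was hybridised apart from the sorted cells, and its groups were tested only against each other, with the variance estimated over all 42 arrays. Ranges, orders and correlations of group means take in all 14 groups and so both series.

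**Figure D1:**
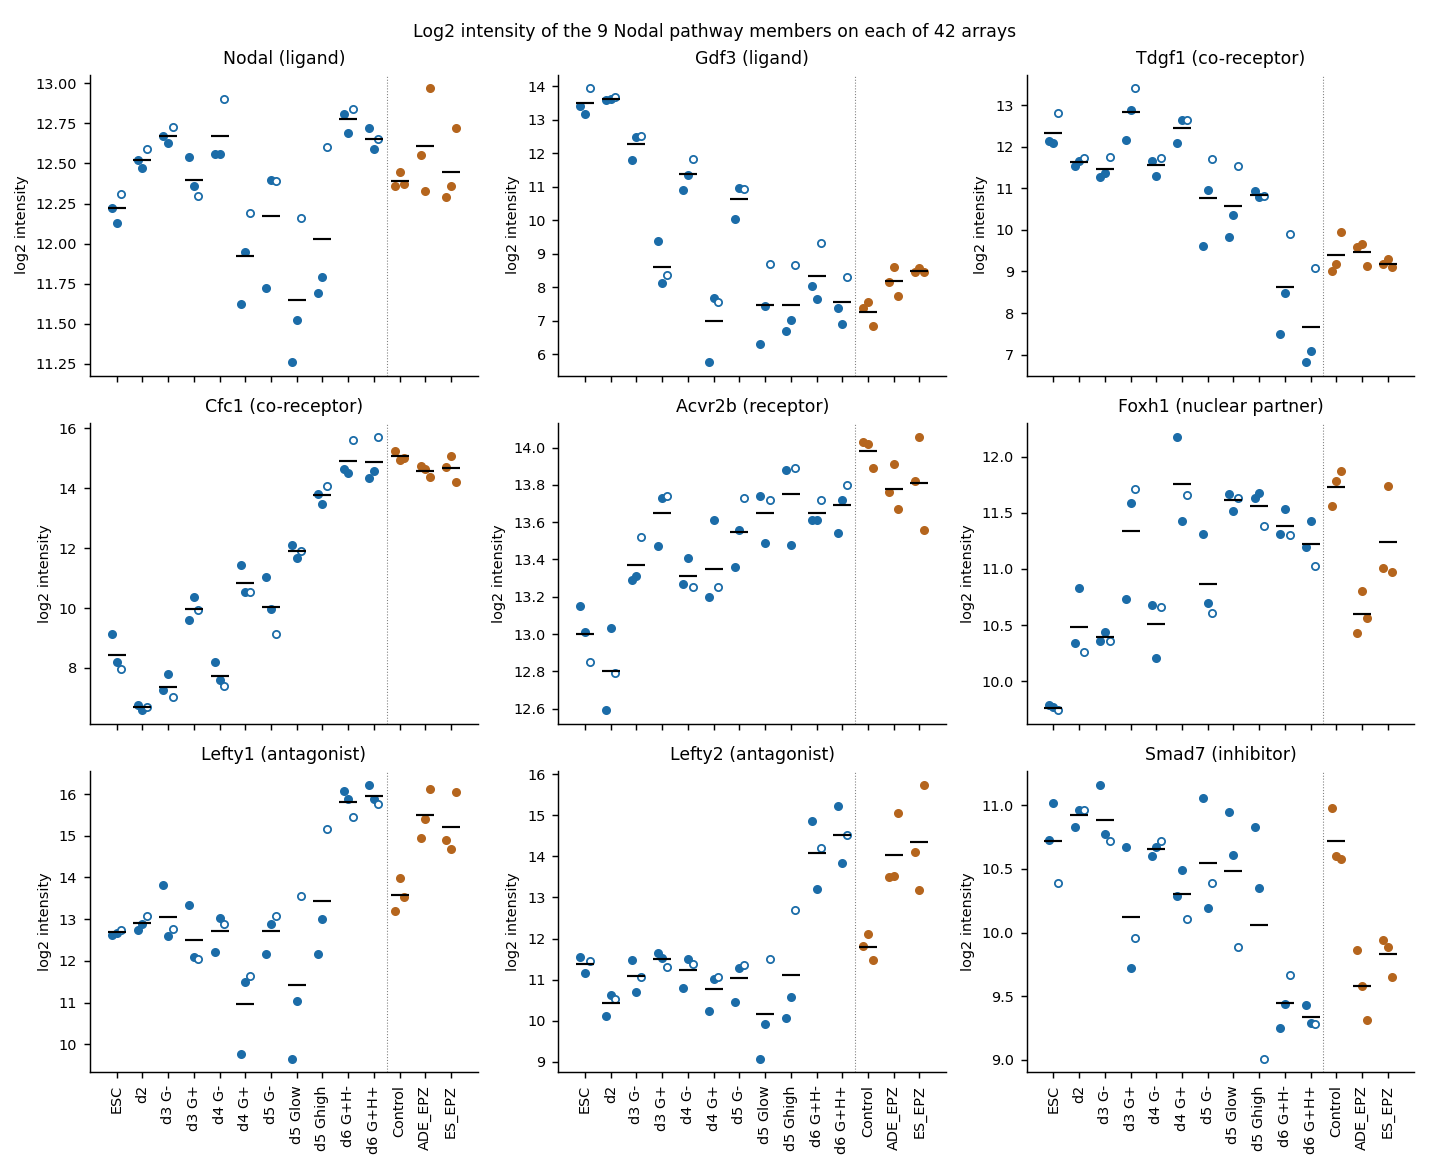
Log2 intensity (vertical axis, a separate scale for each gene) of the 9 members on every array, by group. Points are arrays, with open points for replicate 3 of the untreated series, brown points for the EPZ6438 series and bars for group means. By group mean, Cfc1 climbs from 6.68 at d2 to 14.89 in d6 G+H+ cells and Nodal stays between 11.65 and 12.78. Gdf3 is low in GFP-positive cells, and Lefty1 and Lefty2 are high in d6 sorted cells and in both EPZ6438 regimens.

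Of the ligands, Nodal itself varied little. Its group means lay between 11.65 ± 0.46 (SD, n = 3) in d5 Glow and 12.78 ± 0.08 (SD, n = 3) in d6 G+H- cells, a range of 1.13, and it was called in none of the 19 comparisons. Ordered by mean, 12 of 13 pairs of neighbouring groups overlapped in their arrays. In d4 G+ cells Nodal was at 11.62, 11.95 and 12.19 and in d4 G- cells at 12.56, 12.56 and 12.9. The d4 G+ arrays were all below the d4 G- arrays (log2 difference -0.76, SE 0.21, limma adjusted p = 0.0263). From d5 Ghigh cells, at 11.69, 11.79 and 12.6, to d6 G+H- cells, at 12.81, 12.69 and 12.84, the log2 difference was 0.75 (SE 0.21, limma adjusted p = 0.022), again without overlap and below the fold limit. Replicate 3 was the highest of the d5 Ghigh arrays, and the difference was 1.01 in scan batch 1 and 0.24 in scan batch 2.

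Gdf3, a ligand related to Nodal that is known in pluripotent cells, had another course. It was high in ESCs, at 13.42, 13.16 and 13.94, and in d2 cells, at 13.58, 13.63 and 13.69. At d3 the G- cells had 11.81, 12.49 and 12.51 and the G+ cells 9.39, 8.11 and 8.35. The d3 G+ arrays were all below the d3 G- arrays, and those below the d2 arrays. Gdf3 fell between d2 and d3 G+ cells by 5.02 on the log2 scale (SE 0.52, limma adjusted p = 6.64e-09), 1 of 2 members called there, while 5.73% of all genes were called. From d2 to d3 G- cells the log2 difference was -1.36 (limma adjusted p = 0.172). The dimmer Gdf3 probe gave -1.13 there, with a smaller SE of 0.19 (limma adjusted p = 0.000208), below the fold limit. In that comparison 0 of 9 members were called by limma, 2 had an unadjusted p under 0.05, and 1.29% of all genes were called.

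The difference in Gdf3 between G+ and G- cells was present on each day of sorting. The log2 difference was -3.66 at d3 (SE 0.52, limma adjusted p = 1.27e-05) and -4.37 at d4 (limma adjusted p = 1.02e-06). In d4 G+ cells the arrays had 5.76, 7.68 and 7.54, and in d4 G- cells 10.91, 11.36 and 11.83. At d5 G- cells had 10.03, 10.96 and 10.94, Glow cells 6.3, 7.44 and 8.68, and Ghigh cells 6.68, 7.03 and 8.66. Both GFP-positive groups lay below G- without overlap, Glow by a log2 difference of -3.17 (limma adjusted p = 0.000507) and Ghigh by -3.18 (limma adjusted p = 9.6e-05). Glow and Ghigh overlapped each other, with a log2 difference of -0.02. Without Glow replicate 1 the difference of Glow from G- was -2.58 and was no longer called (limma adjusted p = 0.0136). The dimmer Gdf3 probe was lower in the same 4 comparisons with smaller differences, -2.05 at d3, -1.38 at d4, -1.03 for Glow and -1.01 for Ghigh, of which only that at d3 also passed the fold limit.

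In G- cells the log2 difference of Gdf3 from d3 to d5 was -1.63 and missed the threshold (SE 0.52, limma adjusted p = 0.0816). On the dimmer probe it was -1.26 (SE 0.19, limma adjusted p = 8.86e-05), below the fold limit. In d6 G+H+ cells Gdf3 was at 7.39, 6.9 and 8.31. It fell between ESCs and d6 G+H+ cells by 5.97 on the log2 scale (SE 0.52, limma adjusted p = 3.67e-11), and by 3.67 on the dimmer probe (limma adjusted p = 1.51e-16). In the same sorted cells the pluripotency markers were low too. Of the 7 genes, 5 were called lower in d3 G+ than in d3 G- cells, 5 in d4 G+ than in d4 G- cells, and 4 in Glow and 7 in Ghigh than in d5 G- cells. The part of undifferentiated cells in the Gdf3 level of a sorted group was not tested.

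From ESCs to d6 the co-receptors went opposite ways, Cfc1 up and Tdgf1 down, while at d3 and d4 both had higher arrays in G+ than in G- cells. The stretches from 250 bases before to 50 after the start site of both genes and of Nodal follow, 5′ to 3′, as RefSeq gives them for assembly GRCm38.p6, since from ESCs to d6 these members set apart a rising, a falling and a level pattern. Capitals mark matches to CAGAC, the Smad box, and to AATNNACA, a loose form of the Foxh1 site, on either strand.
Cfc1, chr1:34535398-34535697, + strand: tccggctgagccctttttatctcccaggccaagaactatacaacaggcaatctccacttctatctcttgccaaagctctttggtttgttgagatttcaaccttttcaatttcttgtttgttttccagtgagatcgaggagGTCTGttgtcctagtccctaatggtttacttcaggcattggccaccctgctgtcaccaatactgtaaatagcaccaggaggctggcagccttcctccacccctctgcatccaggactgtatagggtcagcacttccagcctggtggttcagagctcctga
Tdgf1, chr9:110946109-110946408, - strand: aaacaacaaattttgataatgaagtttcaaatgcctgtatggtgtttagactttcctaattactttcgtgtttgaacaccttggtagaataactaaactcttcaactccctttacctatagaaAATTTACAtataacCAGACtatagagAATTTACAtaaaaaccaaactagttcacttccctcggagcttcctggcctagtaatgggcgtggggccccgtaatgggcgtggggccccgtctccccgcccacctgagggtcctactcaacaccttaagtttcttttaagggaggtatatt
Nodal, chr10:61417722-61418021, + strand: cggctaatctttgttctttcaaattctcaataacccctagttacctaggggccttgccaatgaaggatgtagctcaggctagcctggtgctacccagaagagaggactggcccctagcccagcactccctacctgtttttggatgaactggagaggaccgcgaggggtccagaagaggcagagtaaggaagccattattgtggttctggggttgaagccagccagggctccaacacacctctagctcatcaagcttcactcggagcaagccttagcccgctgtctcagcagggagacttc
Such a stretch was matched for 4 of the 9 members, the other being Acvr2b.

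CAGAC was found 1 time each for Cfc1, Tdgf1 and Acvr2b and 0 times for Nodal, and 49.6% of 32851 stretches of the same length hold it. AATNNACA was found 2 times for Tdgf1 and 0 times for the other 3 members, against 12.2% of all stretches. The stricter AATCCACA, which AATNNACA includes, and the palindrome GTCTAGAC were found 0 times in the 4 stretches, and 0.855% and 0.213% of all stretches hold them. The stretch of Acvr2b had 27 CG dinucleotides and a G plus C content of 73.3%, that of Cfc1 had 2 and 49.0%, that of Tdgf1 7 and 41.7%, and that of Nodal 5 and 54.0%. The medians over all stretches were 7 and 52.7%. These matches are letters in a window, and no binding was measured here.

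Cfc1 had the widest range of the members, 8.4 between the means of d2 and Control. It was at 9.13, 8.21 and 7.97 in ESCs and at 6.76, 6.58 and 6.7 in d2 cells. The d2 arrays were all lower, and Cfc1 fell by 1.76 on the log2 scale (SE 0.38, limma adjusted p = 0.00234), the 1 member called between d2 cells and ESCs, where 1.72% of all genes were called. That call was lost without ESC replicate 1 (log2 difference -1.41, limma adjusted p = 0.0403), without d2 replicate 2 (limma adjusted p = 0.0127) and without d2 replicate 3 (limma adjusted p = 0.0111).

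From d3 on Cfc1 was higher in the GFP-positive cells. In d3 G- cells it was at 7.25, 7.81 and 7.04 and in d3 G+ cells at 9.6, 10.38 and 9.93. The G+ arrays lay above both the G- and the d2 arrays, by 2.61 (SE 0.38, limma adjusted p = 1.53e-05) and 3.29 (limma adjusted p = 4.37e-08) on the log2 scale. Cfc1 and Gdf3 were the 2 of 9 members called between d3 G+ and G- cells, where 1.8% of all genes were called. At d4 the arrays had 8.2, 7.61 and 7.39 in G- and 11.43, 10.53 and 10.53 in G+ cells. They did not overlap, and the log2 difference of 3.1 (SE 0.38, limma adjusted p = 1.28e-06) and that of Gdf3 were the 2 called, beside 2.29% of all genes. Between d3 and d4 the G+ to G- difference of Cfc1 changed by 0.49 (SE 0.53, limma adjusted p = 1). Over the 9 members 0 such changes were called by limma, 0 had an unadjusted p under 0.05, and the share of all genes called was 0%. From d3 G+ to d4 G+ cells 0 of 9 members were called by limma, 4 had an unadjusted p under 0.05, and 0.0381% of all genes were called.

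At d5 Cfc1 was ordered by the GFP level. G- cells had 11.04, 9.96 and 9.14, Glow cells 12.1, 11.67 and 11.9, and Ghigh cells 13.81, 13.46 and 14.09, and none of the 3 groups overlapped another. Ghigh cells exceeded G- cells by 3.74 on the log2 scale (SE 0.38, limma adjusted p = 2.72e-08) and d4 G+ cells by 2.96 (limma adjusted p = 4.26e-06). The share of all genes called was 2.58% in the first comparison, where Gdf3 was the other of 2 members, and 1.15% in the second, where Cfc1 was the 1 member. Glow cells exceeded G- cells by 1.84 (limma adjusted p = 0.00489, beside 0.768% of all genes), with Gdf3 again the other of 2 members called. Ghigh cells exceeded Glow cells by 1.9 (limma adjusted p = 0.00838), the 1 member called, beside 0.267% of all genes.

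The Cfc1 calls of the intermediate steps were lost in most fits with a single array left out. The Glow to G- call of Cfc1 was lost without 5 of the 6 arrays in turn, all but G- replicate 1, at log2 differences of 1.39 to 1.95. The Ghigh to Glow call was lost without any of its 6 arrays in turn, with limma adjusted p between 0.014 and 0.0884 and log2 differences of 1.75 to 2.06. Within the scan batches the Ghigh to Glow difference was 1.75 and 2.2 and the Glow to G- difference 1.39 and 2.76. From d4 G+ to d5 Glow cells 0 of 9 members were called by limma, 2 had an unadjusted p under 0.05, and 0.138% of all genes were called. Cfc1 also rose in the GFP-negative cells, by 2.68 on the log2 scale from d3 to d5 (SE 0.38, limma adjusted p = 2.74e-05), the 1 member called beside 0.868% of all genes. In the same comparison 4 of 6 mesoderm markers and 2 of 6 definitive endoderm markers were called higher, and the mean log2 intensity over the mesoderm markers was 6.77 to 7.35 on the d3 G- arrays and 8.0 to 10.12 on the d5 G- arrays. Their part in the Cfc1 level was not tested.

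**Figure D2:**
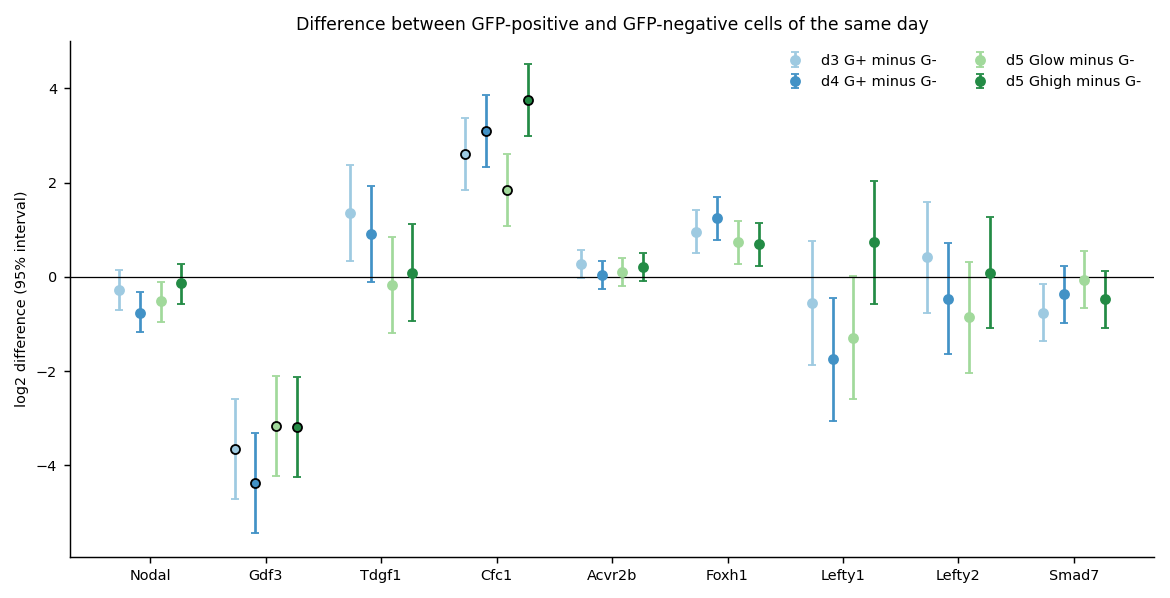
Log2 difference between GFP-positive and GFP-negative cells of the same day (vertical axis) for the 9 members, with 95% intervals from limma. Points edged in black were called. Cfc1 was called higher and Gdf3 called lower in the 4 comparisons, from 1.84 to 3.74 and from -4.37 to -3.17, and none of the other 7 members was called.

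By d6 Cfc1 was at 14.64, 14.51 and 15.61 in G+H- cells and at 14.36, 14.58 and 15.73 in G+H+ cells. It rose between ESCs and d6 G+H+ cells by 6.45 on the log2 scale, 87.4-fold (SE 0.38, limma adjusted p = 2.3e-15). From d5 Ghigh to d6 G+H- cells the log2 difference was 1.13 (limma adjusted p = 0.0691). Ordered by mean, 8 of the 13 pairs of neighbouring groups overlapped in their arrays and 5 did not, the most of any member.

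Tdgf1, which marks pluripotent cells and the early streak, was at 12.14, 12.08 and 12.82 in ESCs. In d3 G+ cells it was at 12.17, 12.89 and 13.41 and in d3 G- cells at 11.28, 11.37 and 11.76. The d3 G+ arrays were higher without overlap, by a log2 difference of 1.36 that missed the threshold (SE 0.5, limma adjusted p = 0.154). At d4 the G+ arrays were again the higher, at 12.1, 12.64 and 12.65 against 11.67, 11.29 and 11.72 (log2 difference 0.9, limma adjusted p = 0.489). The dimmest Tdgf1 probe gave 0.54 at d3 and -0.04 at d4. At d5 its 3 sorted groups overlapped, with means of 10.76 ± 1.06 in G-, 10.58 ± 0.88 in Glow and 10.85 ± 0.07 in Ghigh cells (SD, n = 3).

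From d4 G+ cells to d5, Tdgf1 was lower without overlap in both GFP-positive groups, by log2 differences of -1.88 to Glow (SE 0.5, limma adjusted p = 0.0612) and -1.62 to Ghigh (SE 0.5, limma adjusted p = 0.0645) that missed the threshold. Within the scan batches they were -2.27 and -1.1 for Glow and -1.51 and -1.84 for Ghigh. The dimmest probe gave -1.47 and -0.76.

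The lowest levels of Tdgf1 came at d6. The G+H- arrays had 7.49, 8.48 and 9.9 and the G+H+ arrays 6.82, 7.08 and 9.08, all below the d5 Ghigh arrays at 10.93, 10.8 and 10.81. Tdgf1 fell from d5 Ghigh to d6 G+H- cells by 2.22 on the log2 scale (SE 0.5, limma adjusted p = 0.00378), 1 of 2 members called beside 2.17% of all genes. Replicate 3 was the highest of both d6 groups, and within the scan batches the log2 difference was -2.88 and -0.91. The call was lost without d5 Ghigh replicate 1 or 2 or d6 G+H- replicate 1 or 2, at log2 differences of -2.24 to -1.65. Between ESCs and d6 G+H+ cells Tdgf1 fell by 4.68 (SE 0.5, limma adjusted p = 2.97e-09). Of its other probes, the brighter gave -4.64 and the dimmer -2.27 (limma adjusted p = 0.000142). From d5 Ghigh to d6 G+H- cells the dimmest probe gave -0.75 (limma adjusted p = 0.472), so the probes disagreed in size, and the call at d6 was not made on that probe.

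Acvr2b, a type II receptor, and Foxh1, the forkhead protein that binds Smad complexes, varied within narrower bounds. Acvr2b group means ranged over 1.18, with 12.59, 13.03 and 12.79 at d2 and 13.47, 13.73 and 13.74 in d3 G+ cells. These groups did not overlap, and the log2 difference of 0.84 had a limma adjusted p of 5.37e-05 but lay below the fold limit. Between G+ and G- cells of a day its log2 differences were 0.27 at d3, 0.04 at d4, 0.1 for Glow and 0.2 for Ghigh, and Acvr2b was called in none of the 19 comparisons.

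Foxh1 was at 9.79, 9.77 and 9.74 in ESCs, below every array of every other group. It was at 10.36, 10.44 and 10.36 in d3 G- and 10.73, 11.59 and 11.71 in d3 G+ cells, and at 10.68, 10.21 and 10.66 in d4 G- and 12.18, 11.43 and 11.66 in d4 G+ cells. The GFP-positive arrays were the higher on both days without overlap. The log2 differences were 0.96 (SE 0.22, limma adjusted p = 0.0068) and 1.24 (limma adjusted p = 0.000372), both under the fold limit. At d5 the difference was 0.73 for Glow and 0.69 for Ghigh cells, with limma adjusted p of 0.0989 and 0.0692. Between ESCs and d6 G+H+ cells it was 1.46 (SE 0.22, limma adjusted p = 3e-06), just under the fold limit. Without single arrays it was 1.35 to 1.55 and was called only without d6 G+H+ replicate 3, at 1.55.

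The antagonists Lefty1 and Lefty2 are closely related genes. Over the 14 group means their levels had a Pearson correlation of 0.93, a description over groups that share slides. The probe sequences were not used here, so signal that either probe may take from the other gene could not be judged. At d3 Lefty1 overlapped between G+ cells, at 13.34, 12.1 and 12.05, and G- cells, at 13.81, 12.6 and 12.76. At d4 it was at 9.77, 11.49 and 11.64 in G+ cells and at 12.21, 13.04 and 12.88 in G- cells. The d4 G+ arrays were the lower without overlap, with a log2 difference of -1.75 that missed the threshold (SE 0.64, limma adjusted p = 0.139). Lefty2 overlapped between d4 G+ and G- cells, with a log2 difference of -0.47 (limma adjusted p = 0.939).

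At d5 the replicates of both genes stood apart. Lefty1 was at 9.66, 11.03 and 13.56 in Glow cells and at 12.17, 13.0 and 15.15 in Ghigh cells. Lefty2 was at 9.08, 9.93 and 11.5 in Glow and at 10.07, 10.59 and 12.7 in Ghigh cells. In Glow and Ghigh cells alike, replicate 3, of the other scan batch, was the highest array of both genes. The SDs of Lefty1 were 1.98 and 1.54 there, beside a median SD of 0.54 over all groups. The Ghigh to Glow log2 difference of Lefty1 was 2.02 (SE 0.64, limma adjusted p = 0.21), with 2.24 and 1.59 within the batches. Without single arrays it was 1.14 to 3.09, with limma adjusted p of 0.0037 to 0.649. It was called only without Glow replicate 3, at 3.09. Against d4 G+ cells Ghigh cells differed in Lefty1 by 2.47 (limma adjusted p = 0.0213). Without single arrays that difference was 1.62 to 3.11, with limma adjusted p of 0.00799 to 0.195. It was called only without Ghigh replicate 1, at 3.11.

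Both genes were high at d6. Lefty1 was at 16.08, 15.88 and 15.46 in G+H- and 16.22, 15.87 and 15.77 in G+H+ cells, and 0 spots of the arrays were marked as saturated. Lefty2 was at 14.86, 13.2 and 14.2 in G+H- and 15.23, 13.84 and 14.52 in G+H+ cells. All of these arrays were above all d5 Ghigh arrays of the same gene. Lefty2 rose from d5 Ghigh to d6 G+H- cells by 2.96 on the log2 scale (SE 0.58, limma adjusted p = 0.000885), with 3.7 and 1.5 within the batches. That call was lost without d5 Ghigh replicate 1 or 2 or d6 G+H- replicate 1, at 2.44 to 2.7. Lefty1 differed by 2.37 (SE 0.64, limma adjusted p = 0.0183) and was not called. Its difference was 3.39 in batch 1 and 0.32 in batch 2. Without single arrays it was 1.74 to 3.22, with limma adjusted p of 0.00093 to 0.204. It was called only without d5 Ghigh replicate 3, at 3.22.

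Against ESCs, at 12.63, 12.68 and 12.74 for Lefty1 and at 11.56, 11.16 and 11.45 for Lefty2, both antagonists rose in d6 G+H+ cells. The log2 differences were 3.27 for Lefty1 (SE 0.64, limma adjusted p = 0.000125) and 3.14 for Lefty2 (SE 0.58, limma adjusted p = 5.17e-05). With Cfc1, Tdgf1 and Gdf3 they were the 5 of 9 members called in that comparison, where 11.1% of all genes were called. Between d6 G+H+ and G+H- cells 0 of 9 members were called by limma, 0 had an unadjusted p under 0.05, and the share of all genes called was 0%. The widest interval among the members there was that of Lefty1, a log2 difference of 0.15 with a 95% interval of -1.16 to 1.45.

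Smad7, which blocks the activated receptor and is itself induced by the signal, had its lowest means in the d6 sorted cells. It was at 10.73, 11.02 and 10.39 in ESCs, at 9.25, 9.44 and 9.67 in d6 G+H- cells and at 9.43, 9.29 and 9.28 in d6 G+H+ cells. The d6 arrays were all lower than the ESC arrays. The log2 difference of d6 G+H+ cells was -1.38 (SE 0.3, limma adjusted p = 0.000408), under the fold limit. Without single arrays it was -1.54 to -1.23 and was called only without ESC replicate 3, at -1.54. In d5 Ghigh cells Smad7 was at 10.83, 10.35 and 9.01, with replicate 3 the lowest, and the log2 difference to d6 G+H- cells was -1.24 in batch 1 and 0.65 in batch 2.

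EZH2 inhibition was compared with Control in 2 regimens, and since both use the same Control arrays their values are given side by side and are not independent. Lefty2 was at 11.83, 12.1 and 11.48 in Control, at 13.51, 13.53 and 15.05 in ADE_EPZ and at 14.1, 13.18 and 15.74 in ES_EPZ cultures. All treated arrays were above all Control arrays. Lefty2 rose in ADE_EPZ cultures by 2.23 on the log2 scale, 4.68-fold (SE 0.58, limma adjusted p = 0.00879), the 1 member called beside 2.78% of all genes. The call was lost without any of the 6 arrays in turn, with log2 differences of 1.72 to 2.49 and limma adjusted p of 0.012 to 0.0942. It was also lost with the variance taken from the EPZ6438 series alone (limma adjusted p = 0.0353). In ES_EPZ cultures the log2 difference was 2.54 (limma adjusted p = 0.0159), 0 of 9 members were called by limma, 5 had an unadjusted p under 0.05, and 0.434% of all genes were called. Without single arrays that difference was 1.84 to 3.12, with limma adjusted p of 0.00347 to 0.256. It was called only without ES_EPZ replicate 2, at 3.12. Of 13 other settings 4 gave a call and 9 did not, with limma adjusted p of 0.00416 to 0.0886. With slide as a fixed block the difference stayed at 2.54 and was called (limma adjusted p = 0.00597).

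Lefty1 was at 13.2, 13.99 and 13.53 in Control, at 14.95, 15.39 and 16.12 in ADE_EPZ and at 14.89, 14.68 and 16.05 in ES_EPZ cultures, again without overlap. The log2 differences of 1.91 (SE 0.64, limma adjusted p = 0.0513) and 1.63 (limma adjusted p = 0.225) missed the threshold. Within the 3 slides they were 2.18, 2.13 and 1.42 for ADE_EPZ and 1.48, 2.06 and 1.35 for ES_EPZ. For Lefty2 they were 1.7, 2.95 and 2.03 and then 1.35, 3.64 and 2.62. With no overlap of the arrays, both genes were necessarily above the same slide's Control array in 3 of 3 slides for each regimen.

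Smad7 in both regimens and Foxh1 in ADE_EPZ cultures were lower than in Control, below the fold limit. Foxh1 was at 11.56, 11.78 and 11.87 in Control and at 10.43, 10.8 and 10.56 in ADE_EPZ cultures, which did not overlap (log2 difference -1.14, SE 0.22, limma adjusted p = 0.000609). ES_EPZ cultures, at 11.01, 11.74 and 10.97, overlapped with Control (log2 difference -0.5, limma adjusted p = 0.328), with 0.18, -0.81 and -0.87 within the 3 slides. Smad7 was at 10.98, 10.6 and 10.58 in Control, at 9.86, 9.58 and 9.31 in ADE_EPZ and at 9.94, 9.89 and 9.65 in ES_EPZ cultures. All treated arrays were below all Control arrays, with log2 differences of -1.14 (limma adjusted p = 0.00944) and -0.89 (limma adjusted p = 0.125).

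None of the ligands and co-receptors was called in either regimen. Gdf3 was at 7.37, 7.56 and 6.85 in Control, 8.16, 8.61 and 7.74 in ADE_EPZ and 8.45, 8.57 and 8.45 in ES_EPZ cultures, above Control without overlap (log2 differences 0.91 and 1.23, limma adjusted p = 0.361 and 0.285). The dimmer Gdf3 probe gave smaller differences, 0.23 and 0.22 (limma adjusted p = 0.606 and 0.76). The log2 differences of ADE_EPZ and ES_EPZ cultures from Control were 0.22 and 0.06 for Nodal, -0.49 and -0.41 for Cfc1, 0.08 and -0.2 for Tdgf1, and -0.2 and -0.17 for Acvr2b. Between ADE_EPZ and ES_EPZ cultures 0 of 9 members were called by limma, 1 had an unadjusted p under 0.05, and 0.134% of all genes were called. That 1 was Foxh1, with a log2 difference of -0.64 (95% interval -1.1 to -0.19, limma adjusted p = 0.243). The intervals there were -1.49 to 0.87 for Lefty2 and -1.03 to 1.58 for Lefty1.

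Markers of several cell types differed between the regimens. The mean log2 intensity over the 6 definitive endoderm markers was 11.25 to 11.67 on the Control arrays, 12.3 to 12.7 on the ADE_EPZ arrays and 11.98 to 12.45 on the ES_EPZ arrays, and 1 of the 6, Hhex, was called higher in ADE_EPZ cultures. Over the 6 mesoderm markers it was 9.33 to 9.41, 8.02 to 8.59 and 8.13 to 8.91, with 1 of 6, Meox1, called lower in ADE_EPZ cultures. Over the 7 pluripotency markers it was 6.88 to 7.39, 7.84 to 8.16 and 6.68 to 7.87, with 1 of 7, Zfp42, called higher in ADE_EPZ cultures. Over the 6 primitive streak markers it was 10.78 to 10.85, 9.77 to 9.99 and 10.07 to 10.52, without overlap with Control, and 1 of 6, Mixl1, was called lower in both regimens. Over the 6 visceral endoderm markers it was 7.55 to 8.13, 7.87 to 8.66 and 7.13 to 8.23, with 1 of 6, Rhox5, called higher in ADE_EPZ cultures. All 19 of the definitive endoderm, mesoderm and pluripotency markers were above background on all ADE_EPZ arrays. The part of a shift in cell types in the Lefty, Foxh1 and Smad7 values was not tested.

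**Figure D3:**
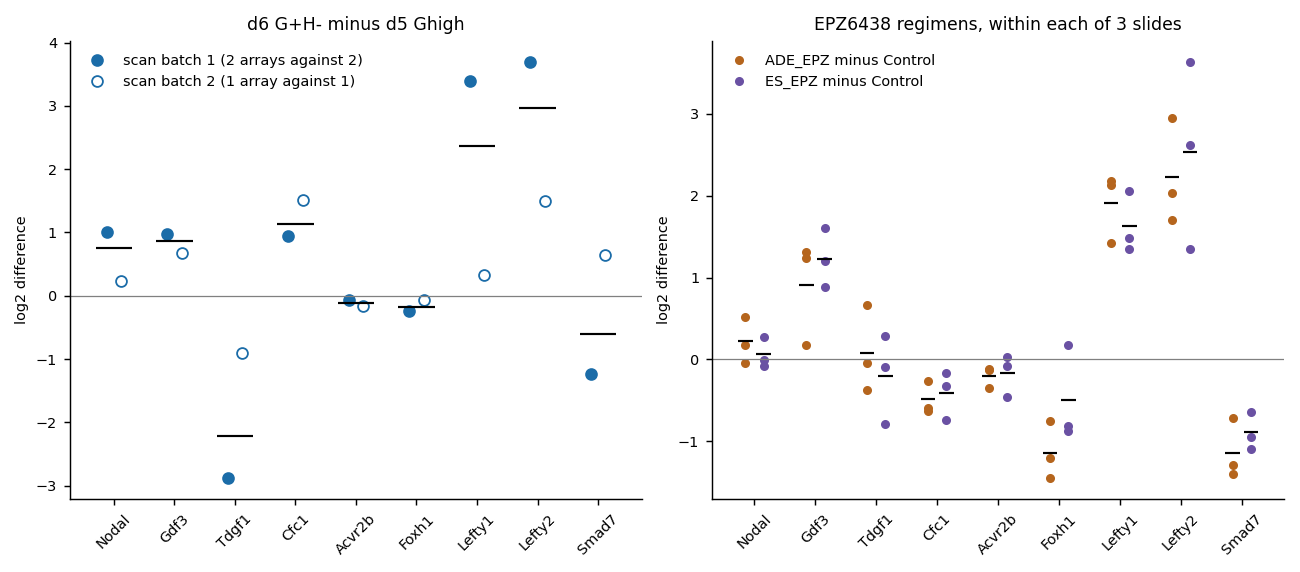
Log2 differences (vertical axis) of the 9 members within scan batches for d6 G+H- minus d5 Ghigh cells (left) and within slides for the EPZ6438 regimens minus Control (right), with bars for the mean difference over all arrays. Lefty1 differs by 3.39 in scan batch 1 and 0.32 in scan batch 2, Smad7 differs in sign between the batches, and Lefty1 and Lefty2 are above 0 on each of the 3 slides in both regimens.

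A further 27 genes of the pathway were listed whatever their values. They include Mixl1, Eomes, Sox17, Foxa2 and Cer1, which also served as streak or endoderm markers. Gsc is left out of the counts in sorted cells, since its reporter chose them. Of the other 26, 8 rose and 2 fell between d2 and d3 G+ cells, where 5.73% of all genes were called. The streak transcription factor gene Mixl1 rose by at least 67.4-fold, since it was not well above background at d2, and Lhx1, an organiser homeobox gene, by 5.15 on the log2 scale (limma adjusted p = 4.6e-10). The ligand gene Gdf1, a partner of Nodal, fell by 2.31 and Pcsk6, a convertase that cleaves the Nodal precursor, by 1.7. The Pcsk6 call was lost without d2 replicate 2 or d3 G+ replicate 2 or 3, with limma adjusted p of 0.0123 to 0.0209. Between G+ and G- cells of the same day 3 of 26 were higher at d3, 4 at d4, 2 in Glow and 4 in Ghigh cells, and 0 were lower. The shares of all genes called in either direction there were 1.8%, 2.29%, 0.768% and 2.58%. Lhx1 was higher in G+ cells by 3.83 at d3 and 2.82 at d4. Without d3 G+ replicate 1 its differences at d3 were 5.76 from d2 and 4.45 from G- cells. In Ghigh cells the endoderm transcription factor gene Sox17 was higher by 4.94 (limma adjusted p = 1.68e-09) and Cer1, a secreted antagonist that binds Nodal, by 4.56 (limma adjusted p = 0.000585). Without single arrays the difference of Cer1 was 3.55 to 5.45, and without Ghigh replicate 3, at 3.55, it was no longer called (limma adjusted p = 0.0123).

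At d6, 9 of the 26 rose in G+H+ cells against ESCs, where 11.1% of all genes were called in either direction. Cer1 rose by at least 2050-fold, since it was not well above background in ESCs, and Foxa2, an endoderm forkhead gene, rose by 8.29 on the log2 scale (SE 0.63, limma adjusted p = 1.53e-12). Gdf1 and Pcsk6 were the 2 that fell, by 2.85 and 3.72. In ADE_EPZ cultures 3 of 27 were called, beside 2.78% of all genes. Pcsk6 was at 3.47, 5.67 and 5.72 in Control and at 7.36, 7.33 and 7.42 in ADE_EPZ cultures and rose by 2.41 (limma adjusted p = 0.000128). The median over all spots of an array was 5.54 to 5.57, so the Control signal of Pcsk6 was dim and the size of its rise is uncertain. Control replicate 1 was the lowest, and without it the difference was 1.67 and was still called (limma adjusted p = 0.00306). Smad6, an inhibitory Smad, fell by 2.28 (limma adjusted p = 0.0072), a call lost without any of the 6 arrays in turn, with limma adjusted p of 0.0117 to 0.0508. Mixl1 fell by 3.34 (limma adjusted p = 1.2e-07). Mixl1 was also the 1 of 27 called in ES_EPZ cultures, beside 0.434% of all genes, and fell there by 1.72 (limma adjusted p = 0.00552). That call was lost without Control replicate 1 or 3 or ES_EPZ replicate 1 or 3, with limma adjusted p of 0.0195 to 0.118. Cer1 differed by 2.42 and 2.25 in the regimens and was not called (limma adjusted p = 0.0693 and 0.207).

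The genes most like each of the 5 members with the widest range were found by the Pearson correlation of 14 group means. They were sought among 3492 genes whose group means ranged over at least 2 on the log2 scale. Nearest to Cfc1 were Tuba8 (0.989), Crtc3 (0.987) and 2410018L13Rik (0.986). Nearest to Gdf3 were Utf1 (0.986), a gene of undifferentiated embryonic cells, Elavl3 (0.984) and Slc22a7 (0.983). Nearest to Lefty1 were Pde9a (0.978) and the protease inhibitor genes Spint1 and Spint2 (0.974 each), and nearest to Lefty2 were Fam189a1 (0.973), H4c8 and Myl3 (0.971 each). Nearest to Tdgf1 were Fam72a (0.947), Susd5 and She (0.94 each). The group means share slides, and these values describe likeness over them. Among the members themselves, the lowest was that of Gdf3 with Foxh1 (-0.89), followed by Lefty2 with Smad7 (-0.85).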

How the data were processed

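Group and replicate number of the 42 arrays came from the deposited labels. The authors deposited a scanner file per array, with intensity and background intensity of each spot (Agilent Feature Extraction 11.0.1.1 for the untreated and 12.0.1.1 for the EPZ6438 series, per the file headers), and 1 table of log2 values made with limma (normexp correction of the background, offset 10, then quantile normalisation). Those deposited log2 values were used. Values recomputed from the deposited intensity correlated with them at 0.999981 or above on each array.

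Control spots were left out. Spots of a probe were averaged without 7968 spots marked as outliers over all arrays, and 146 probe values were lost. Genes are RefSeq accessions of the scanner files, named through RefSeq of GRCm38.p6, which left 1467 of 29123 probes unnamed and was used for names and promoter stretches only, since the authors' build is mm9. Of all spots, 4470 carried another annotation in the EPZ6438 files, none of a member.

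A linear model with 1 mean per group over all 42 arrays was fitted with limma 3.58.1 in R 4.3.3, with Benjamini-Hochberg adjustment, and the fit was tested on simulated data. A fold against a group not above background is a bound: the mean of the brighter group against that of the lowest signal well above background. All members were named, with at most the 3 most changed of the 27 other pathway genes called in a comparison and the 3 genes most like a member. Gdf1 and Pcsk6 at d3 and d6 and Cer1 under EPZ6438 were added after their values were seen. Members, lists and tests were chosen with earlier results of these data known. Between 25887 and 40398 probes of an untreated array and 24459 and 34789 of an EPZ6438 array were well above background, and the number of arrays limits the precision. The alternatives tried are other background corrections and scalings, filters on dim probes, subsets of arrays (for the other pathway genes chosen after seeing the data), blocks for slide and replicate number, other limma settings and another threshold.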

Additional observations from a re-analysis of the deposited data

How the results depend on the processing

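Each count of members called was recomputed under 14 alternatives and without each array in turn. The counts below moved beyond 1.5 times the reported ones, and the cause was not tested unless fewer arrays or a wider threshold give it. With an offset of 50, 0 members were called between d2 cells and ESCs, and with 75th percentile scaling 0 between d5 Ghigh and Glow cells and 0 between ADE_EPZ and Control. With the arrays of the same series alone the counts were 1 for d5 Glow against G-, 0 for Ghigh against Glow, 1 for d6 G+H- against d5 Ghigh and 0 for ADE_EPZ. With the compared groups alone, which leaves 6 arrays in a fit, they were 0 for d2 against ESC, d5 G- against d3 G-, Glow or Ghigh against G-, Ghigh against Glow, Ghigh against d4 G+ and d6 G+H- against d5 Ghigh, and 2 for ADE_EPZ. Averaging the probes of a gene gave 1 for ES_EPZ. Slide as a fixed or random block gave 0 for Ghigh against Glow and 1 for ES_EPZ. At an adjusted p of at most 0.05 with no fold limit the counts, with the share of all genes, were 2 for d2 against ESC (10.4%), 1 for d3 G- against d2 (7.05%), 4 for d3 G+ against d2 (21.7%), 4 for d4 G+ against G- (8.65%), 2 for Ghigh against d4 G+ (6.69%), 4 for d6 G+H- against d5 Ghigh (11.1%), 8 for d6 G+H+ against ESC (37.4%), 3 for ADE_EPZ (18.1%) and 1 for ES_EPZ (3.29%). Leaving out each array in turn gave 0 to 1 called members for d2 against ESC, 0 to 2 for d5 Glow against G-, 0 to 1 for Ghigh against Glow, 1 to 2 for Ghigh against d4 G+, 0 to 3 for d6 G+H- against d5 Ghigh, 0 for ADE_EPZ and 0 to 1 for ES_EPZ.

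The deviations of same-numbered arrays of different groups had a median correlation of 0.26 in the untreated series, against -0.2 for other numbers. It was 0.16 among the replicate 1 arrays, 0.18 among the replicate 2 arrays and 0.45 among the replicate 3 arrays, which share a scan batch. In the EPZ6438 series it was 0.28, against -0.19 for other numbers. The correlation was over 0.1 in 133 of 165 untreated and 7 of 9 EPZ6438 pairs. Since it was not so in every pair and the labels name no shared source, the main fit did not take the numbers as pairs. Whether same-numbered arrays share a source could not be told from the labels. With the replicate block the count was 1 for d5 Glow and 2 for d5 Ghigh against d4 G+, through Tdgf1 (log2 differences -1.88 and -1.62, limma adjusted p = 0.00563 and 0.00646), and 1 for ES_EPZ, through Lefty2. It changed no other count.

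Recomputed values were counted for 77 single differences of members, most of them not called in the main fit. Of 1463 values, 1397 kept their direction and side of the threshold, 47 lost the call, 14 gained it and 5 turned in sign. A difference that stayed uncalled counts as kept, so these counts do not give the stability of the calls. The 5 that turned in sign were small differences without an array. Tdgf1 in ADE_EPZ ranged from -0.11 without Control replicate 1 to 0.37 without Control replicate 3 and was at -0.02 without Control or ADE_EPZ replicate 2. Nodal in ES_EPZ ranged from -0.07 without its replicate 3 to 0.14, and Tdgf1 in ES_EPZ from -0.39 to 0.09 without Control replicate 3. Scaling to the 75th percentile moved the median of all genes by over 0.1 in 3 comparisons (-0.135 for d3 G- against d2, 0.136 for d3 G+ against G-, -0.112 for d6 G+H- against d5 Ghigh), and the direction of the members called there was the same.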
